A study of Homo sapiens with 6 samples.

Results

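The unfolded protein response and the integrated stress response were followed through 35 genes listed by name, a list drawn up with earlier results of these data known. All 35 were found among the 18750 genes with counts, and all 35 passed the filter on low counts together with 13750 genes in all. They were read from 256 of the 98782 transcripts matched to GENCODE release 29 (GRCh38). Cells labelled HCT116, an established human colorectal cancer line, received either an siRNA against the long non-coding RNA AC010789.1 (si-AC010789.1) or a negative control siRNA (siRNA-NC). Both groups were grown in DMEM with serum, differed by the siRNA alone according to the labels, and held 3 libraries each. The labels do not say whether the libraries of a group came from separate cultures. The paper calls them biological repeats and says that cells of different generations were used for them, without saying which libraries shared a generation. The level of AC010789.1 itself was not analysed here, so the labels were not checked against the targeted RNA.

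When unfolded proteins build up in the endoplasmic reticulum (ER), the sensors IRE1 (gene ERN1), PERK (gene EIF2AK3) and ATF6 are switched on in its membrane. IRE1 splices XBP1 mRNA, ATF6 is cut to release a transcription factor, and PERK phosphorylates eIF2, which lowers general translation while favouring that of ATF4. XBP1 and ATF6 raise chaperones, disulfide isomerases and the machinery of ER-associated degradation, while ATF4, which other eIF2 kinases can also switch on in the integrated stress response, raises DDIT3, TRIB3, CHAC1 and ASNS.

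Total counts ranged from 11277222 to 13443866 per library, where 3 counts correspond to between 0.223 and 0.266 CPM (counts scaled by library size), and mitochondrial transcripts took 7.56% to 8.65% of them. The label of the line was set against epithelial markers. KRT8 ranged from 444 to 850 CPM and KRT18 from 351 to 535 CPM, while EPCAM was only 3.10 to 5.58 CPM and CDH17 was at 0 in NC1, NC2, si2 and si3 (NC1 to NC3 and si1 to si3 stand for the libraries of the groups siRNA-NC and si-AC010789.1). KRT19, VIL1, COL1A2, LUM, PTPRC, CD3E, LYZ, PECAM1 and KDR had no row in the table, whose lowest row sum was 3 counts, and were not analysed. The fibroblast markers COL1A1, DCN and PDGFRB summed to 55.6–66.0 CPM in siRNA-NC against 61.2–66.8 CPM in si-AC010789.1. The summed epithelial markers were 984–1227 CPM in siRNA-NC against 800–1040 CPM in si-AC010789.1, the leukocyte markers 6.07–9.04 and 2.59–5.35 CPM, and the endothelial markers 1.73–2.48 and 0.872–2.51 CPM. Their part in the results below was not tested.

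Of the 35 genes, 0 had an adjusted p under 0.05 (edgeR's quasi-likelihood test, adjusted by Benjamini-Hochberg over 13750 genes), against 0.982% of all genes tested. At an unadjusted p under 0.05, edgeR gave 6 lower and 3 higher in si-AC010789.1, against 8.92% of all genes lower and 8.25% higher. DESeq2, run as an alternative, gave 4 (PDIA4, CEBPB and OS9 lower, TRIB3 higher), against 3.78% of all genes. The criteria named by the study, an unadjusted p under 0.05 with an absolute log2 fold change over 1, were met by 0 of the 35 and by 0.778% of all genes. In 9 genes all 3 si-AC010789.1 libraries lay below all 3 siRNA-NC libraries and in 3 they lay above, against 12.9% and 12.2% of all genes. In such bulk libraries, fewer cells of a type and less RNA per cell cannot be told apart.

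Most of the 35 log2 fold changes (si-AC010789.1 over siRNA-NC throughout) were small and below 0. They were below 0 in 25 genes (71.4%), against 50.1% of all genes, and their median was −0.077, against −0.00066 over all genes. Taken library by library, the median deviation of the 35 genes from the siRNA-NC mean was −0.017, 0.020 and 0.011 in NC1 to NC3 and −0.096, −0.067 and −0.072 in si1 to si3 on the log2 scale. The 3 si-AC010789.1 libraries lay below the 3 siRNA-NC libraries in this median, whose within-group SD was 0.018. Subtracting the siRNA-NC mean of each gene places the siRNA-NC libraries near 0 beforehand, so this SD is no test of the gap. The same median by library is not given here for all genes. The mean over the 35 genes did not separate the groups clearly, at −0.027, −0.0068 and 0.034 in NC1 to NC3 and −0.050, −0.027 and −0.056 in si1 to si3, with NC1 and si2 level. By role, the median log2 fold change was −0.13 for the 3 sensors, −0.0086 for the 5 transcription factors, −0.084 for the 12 chaperones and cochaperones, −0.11 for the 4 disulfide isomerases, −0.22 for the 7 genes of ER-associated degradation (6 of them below 0) and 0.092 for the 4 targets of the integrated stress response. These medians describe the lists and were not tested.

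**Figure D1:**
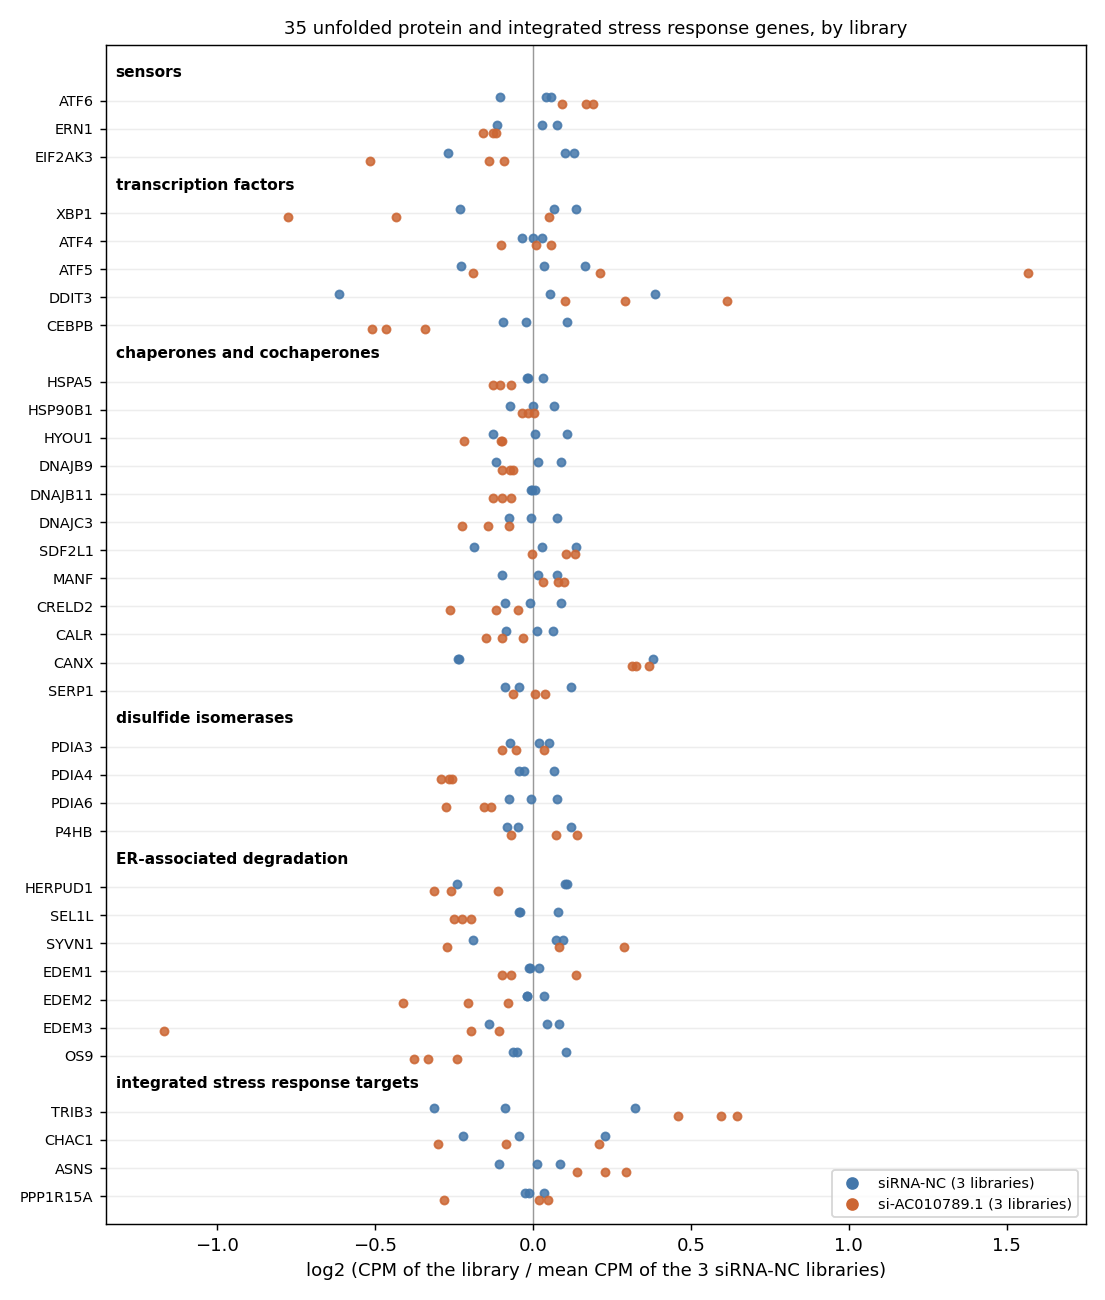
Each point is 1 library, placed by the log2 ratio of its CPM to the mean CPM of the 3 siRNA-NC libraries (x axis), for each of the 35 genes (rows, grouped by role). Most genes stay close to 0; ATF5 in si1 lies far to the right, EDEM3 in si1 far to the left, and CANX in NC1 and NC2 lies apart from its other 4 libraries.

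The stress response elements in the promoters of the members were also described. The genes were listed by name as genes of these responses, so the shares below are not independent of that choice. RefSeq promoters (GRCh38.p14, 250 bases before to 50 after a start) were at hand for 34 of the 35 genes. The ER stress response element (ERSE, CCAAT and CCACG with 9 bases between them, on either strand) occurred in 8 of these 34 (23.5%) and in 0.0916% of the 27305 gene symbols with a promoter. ERSE-II (ATTGG and CCACG with 1 base between them) occurred in HYOU1, SDF2L1 and HERPUD1, against 0.0696% of all promoters. The UPR element TGACGTGG was found in HYOU1 alone among the 34, overlapping its ERSE-II, against 0.927% of all promoters, and the C/EBP-ATF element TGATGNAA in HERPUD1, CHAC1 and ASNS (8.82%), against 4.46%. Together 11 of the 34 genes held ERSE or ERSE-II. A match of letters is a description and does not show that a factor binds.

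The sites below belong to genes whose values are described next. Capitals mark the letters of the element, and each sequence is written 5′ to 3′ along the strand of the gene. HSPA5 (chr9:125241387-125241413, minus strand), XBP1 (chr22:28800599-28800625, minus strand), PDIA6 (chr2:10812849-10812875, minus strand) and CANX (chr5:179698774-179698800, plus strand) hold ERSE along their own strand. CALR (chr19:12938380-12938406, plus strand) holds it on the opposite strand. HERPUD1 (chr16:56932021-56932039, plus strand) holds ERSE-II, and ASNS (chr7:97872465-97872480, minus strand) the C/EBP-ATF element.
HSPA5: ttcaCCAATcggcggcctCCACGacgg
XBP1: ctggCCAATcgcggagggCCACGaccg
PDIA6: cggaCCAATgagccgcagCCACGgctt
CANX: ccggCCAATcttcacactCCACGaaga
CALR: cacgCGTGGtcgaccatcATTGGtcgg
HERPUD1: gccgATTGGgCCACGttgg
ASNS: ggcaTGATGaAActtc

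**Figure D2:**
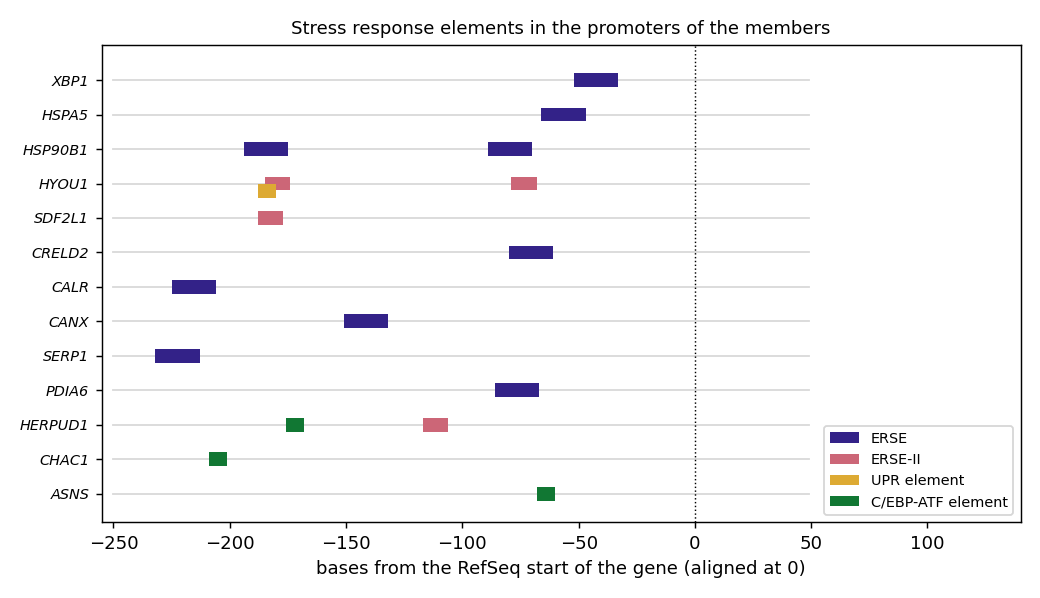
Bars mark the elements found in the promoters of the members, by distance in bases from the RefSeq start (x axis, grey lines span the 250 bases before to the 50 after it); genes with no element are left out. For CANX, which has several starts in the table, the site is drawn from the first. HSP90B1 holds ERSE at 2 places and HYOU1 ERSE-II at 2 places.

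Among the sensors, ATF6 was higher and ERN1 lower in each si-AC010789.1 library, by small amounts. ATF6 (chr1:161766294-161964070) had 117, 131 and 130 CPM in NC1 to NC3 and 134, 144 and 141 CPM in si1 to si3. The groups did not overlap, and the log2 fold change was 0.15 ± 0.061 (SE; edgeR unadjusted p = 0.0463, adjusted p = 0.283). ERN1 had 23.2, 26.4 and 25.6 CPM in siRNA-NC against 22.5, 23.1 and 23.0 CPM in si-AC010789.1, with a log2 fold change of −0.13 ± 0.082 (edgeR adjusted p = 0.459). The highest si-AC010789.1 library lay just below the lowest siRNA-NC library. EIF2AK3 had 40.8, 41.7 and 31.6 CPM against 34.6, 26.6 and 35.7 CPM, and NC3 fell inside the range of the other group (log2 fold change −0.24 ± 0.16, edgeR adjusted p = 0.498).

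XBP1, a transcription factor whose active form needs splicing by IRE1, varied widely within the groups. It had 69.6, 54.0 and 66.3 CPM in siRNA-NC against 46.9, 65.7 and 37.0 CPM in si-AC010789.1 (log2 fold change −0.34 ± 0.21, edgeR adjusted p = 0.470). IRE1 removes 26 bases from XBP1 mRNA. The annotation places the gap of 26 bases in XBP1-202 at chr22:28796122-28796147 (GRCh38, minus strand). This stretch is shown in capitals with 2 flanking bases on either side because the transcripts were sorted by it. Its ends are those of the annotation and need not be the places where IRE1 cuts.
XBP1-201: caCTCAGACTACGTGCACCTCTGCAGCAgg
Of the 7 counted XBP1 transcripts, XBP1-202 and XBP1-207 lack this stretch, XBP1-201, XBP1-203, XBP1-204 and XBP1-206 hold it, and XBP1-205 does not reach it. The transcripts lacking it took 33.6% (exact 95% binomial interval 30.3–37.1%), 46.7% (43.0–50.4%) and 44.2% (40.8–47.5%) of the XBP1 counts in NC1 to NC3. In si1 to si3 the shares were 47.7% (43.4–52.1%), 42.3% (38.9–45.8%) and 27.7% (23.6–32.1%). The intervals cover counting error only, and NC1 and si3 lay below the other 4 libraries. The means were 41.5% ± 6.93 (SD, n = 3) and 39.2% ± 10.4, a difference of −2.25 percentage points (exact two-sided permutation p = 0.7, where 0.1 is the smallest possible). The difference changed sign without NC2 (0.354 points) and without si3 (3.52 points). XBP1-202 carried nearly all of the lacking counts (264, 332 and 389 against 254, 345 and 119 counts), and XBP1-207 had 0 counts in all libraries but si3, which had 6. XBP1-204 had 379, 220 and 341 against 179, 360 and 241 counts, XBP1-206 had 63, 45 and 61 against 46, 78 and 52, XBP1-205 had 1 to 7 in a library and XBP1-201 1 to 3. How the authors divided reads among these overlapping transcripts is not given in the sources used here, so the share is one of assigned counts and not of spliced molecules.

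ATF4, the factor whose translation is favoured when eIF2 is phosphorylated, was almost level as mRNA. It had 243, 232 and 238 CPM in siRNA-NC against 247, 221 and 239 CPM in si-AC010789.1, with a log2 fold change of −0.0086 ± 0.053 (edgeR adjusted p = 0.954), which became 0.0089 with upper-quartile scaling. DDIT3, which encodes the pro-apoptotic factor CHOP, was scarce, at 2.66, 4.22 and 5.32 CPM against 4.97, 6.22 and 4.37 CPM. The siRNA-NC libraries of DDIT3 spread over 2.0-fold, the groups overlapped and the log2 fold change was 0.34 ± 0.28 (edgeR adjusted p = 0.587). Exons of DDIT3 overlap AC022506.1 on the same strand and MARS and MBD6 on the other.

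CEBPB, a basic leucine zipper factor that works in stress and inflammatory responses, was lower in all 3 si-AC010789.1 libraries. CEBPB (chr20:50190734-50192689, plus strand) had 58.6, 61.5 and 67.4 CPM in siRNA-NC against 49.4, 45.3 and 43.9 CPM in si-AC010789.1. The groups did not overlap, with a log2 fold change of −0.44 ± 0.082 (edgeR unadjusted p = 0.00138, adjusted p = 0.0746; DESeq2 adjusted p = 0.0045). Over the 12 alternatives the adjusted p of CEBPB reached 0.226, without si2. ATF5, a factor translated like ATF4, stood at 3.36, 2.56 and 3.07 CPM in siRNA-NC against at 8.90, 2.63 and 3.48 CPM in si-AC010789.1. Only si1 stood out, 3.38 times the lowest library of its group, and the log2 fold change of 0.73 ± 0.47 (edgeR adjusted p = 0.481) became 0.029 without it. Exons of ATF5 overlap MIR4751 on its strand and IL4I1 and NUP62 on the other.

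Several of the chaperones were abundant, and most differed little between the groups. In TPM, which scales counts by annotated transcript length and by library, the siRNA-NC means ran from 3.53 for CHAC1, 3.58 for ATF5 and 8.46 for DDIT3 to 717 for HSPA5, 762 for HSP90B1, 785 for P4HB, 1112 for CANX and 1142 for CALR. Within siRNA-NC, CALR and CANX, which bind glycoproteins during folding, did not differ from each other in TPM beyond their spread (SD 90.9 and 49.1). HSPA5, which encodes the main Hsp70 of the ER, BiP, had 1436, 1486 and 1433 CPM in siRNA-NC against 1330, 1386 and 1352 CPM in si-AC010789.1. Its groups did not overlap although the log2 fold change was only −0.098 ± 0.038 (edgeR unadjusted p = 0.0375, adjusted p = 0.258). DNAJB11, a cochaperone of BiP, also had groups apart, at 138, 139 and 139 CPM against 130, 132 and 127 CPM (log2 fold change −0.097 ± 0.042, edgeR adjusted p = 0.312).

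CANX had 2 levels in CPM that did not follow the groups. It stood at 1222 and 1226 CPM in NC1 and NC2, at 1874 CPM in NC3 and at 1791, 1807 and 1859 CPM in si1 to si3. The log2 fold change was 0.34 ± 0.17 (edgeR adjusted p = 0.365), and without NC3 it was 0.57 with an adjusted p of 0.0332, the only gene of the 35 that edgeR called when 1 library was left out. The adjusted p of CANX ran from 0.0332 to 0.588 over the 12 alternatives. All of these fits used summed counts without scaling by transcript length. In TPM, CANX was about level, at 1112 ± 49.1 (mean ± SD) in siRNA-NC against 1089 ± 19.9 in si-AC010789.1. The higher CPM of CANX in si-AC010789.1 was thus not seen after scaling by length. TPM were not tested.

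For the other 9 chaperones and cochaperones, the groups overlapped. The log2 fold change was −0.14 for DNAJC3, for the nucleotide exchange factor HYOU1 and for CRELD2, −0.091 for CALR, −0.077 for DNAJB9, −0.015 for HSP90B1, −0.0040 for SERP1, 0.071 for the secreted factor MANF and 0.079 for SDF2L1, a partner of DNAJB11. HSP90B1, SERP1 and SDF2L1 changed sign under 1 or more alternatives, and none of the 9 had an edgeR unadjusted p under 0.05.

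Among the disulfide isomerases, which form and rearrange disulfide bonds, PDIA4 and PDIA6 were lower and PDIA3 and P4HB about level. PDIA4 (chr7:149003062-149028641, minus strand) had 420, 453 and 423 CPM in siRNA-NC against 360, 354 and 362 CPM in si-AC010789.1. The gap between the groups was wider than the range of either, and the log2 fold change was −0.27 ± 0.045 (edgeR unadjusted p = 0.000676, adjusted p = 0.0584; DESeq2 adjusted p = 0.0020). PDIA4 had the lowest p of the 35 genes, and its adjusted p ran from 0.0020 to 0.192 over the 12 alternatives. PDIA6 (chr2:10783391-10837977, minus strand) had 571, 635 and 600 CPM against 498, 549 and 542 CPM, without overlap (log2 fold change −0.19 ± 0.059, edgeR unadjusted p = 0.0184, adjusted p = 0.196). PDIA3 had a log2 fold change of −0.037 and P4HB one of 0.051, and the groups of both overlapped.

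Of the 7 genes of ER-associated degradation, which returns misfolded proteins to the cytosol for the proteasome, 3 had groups apart, each lower in si-AC010789.1, where 12.9% of all genes were apart and lower. OS9, a lectin that recognises trimmed glycans, had 169, 151 and 152 CPM in siRNA-NC against 133, 121 and 125 CPM in si-AC010789.1 (chr12:57693955-57721557, plus strand). The groups of OS9 did not overlap, with a log2 fold change of −0.31 ± 0.066 (edgeR unadjusted p = 0.00244, adjusted p = 0.0915; DESeq2 adjusted p = 0.0172, and up to 0.243 over the 12 alternatives). SEL1L, the adaptor of the ligase HRD1, had 144, 156 and 143 CPM against 126, 129 and 124 CPM (chr14:81471549-81533861, minus strand). Its groups lay apart too, with a log2 fold change of −0.22 ± 0.053 (edgeR unadjusted p = 0.00451, adjusted p = 0.114).

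EDEM2 had 32.0, 33.1 and 31.9 CPM against 28.1, 30.6 and 24.3 CPM, and a log2 fold change of −0.22 ± 0.10 (edgeR adjusted p = 0.326). SYVN1, which encodes HRD1 itself, was at 0.052, EDEM1 at −0.0051 and HERPUD1, an ER membrane protein of the ligase complex, at −0.22 on the log2 scale, all with overlapping groups. EDEM3, like EDEM1 and EDEM2 a mannosidase-related protein, had 92.4, 79.4 and 90.1 CPM against 38.9, 81.0 and 76.3 CPM. A single library, si1, was low in EDEM3, 2.08-fold below the highest of its group, and without it the log2 fold change moved from −0.42 to −0.15.

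The 4 targets of the integrated stress response had values on both sides of 0. TRIB3, a pseudokinase induced by ATF4 and DDIT3, had 28.95, 24.8 and 38.5 CPM in siRNA-NC against 46.5, 48.1 and 42.3 CPM in si-AC010789.1 (chr20:362835-397559, plus strand). The groups did not overlap, with a log2 fold change of 0.57 ± 0.17 (edgeR unadjusted p = 0.012, adjusted p = 0.164; DESeq2 adjusted p = 0.0464, and up to 0.340 over the 12 alternatives). ASNS, the asparagine synthetase, had 19.6, 22.4 and 21.3 CPM against 24.7, 25.9 and 23.2 CPM, again without overlap (log2 fold change 0.22 ± 0.089, edgeR unadjusted p = 0.0433, adjusted p = 0.274). CHAC1, which degrades glutathione, was at −0.037 and PPP1R15A, the subunit that brings a phosphatase to eIF2, at −0.063 on the log2 scale, both with overlapping groups. For each of the 12 genes whose groups lay apart, an exact two-sided permutation test of the CPM gave p = 0.1, the smallest possible with 3 against 3.

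**Figure D3:**
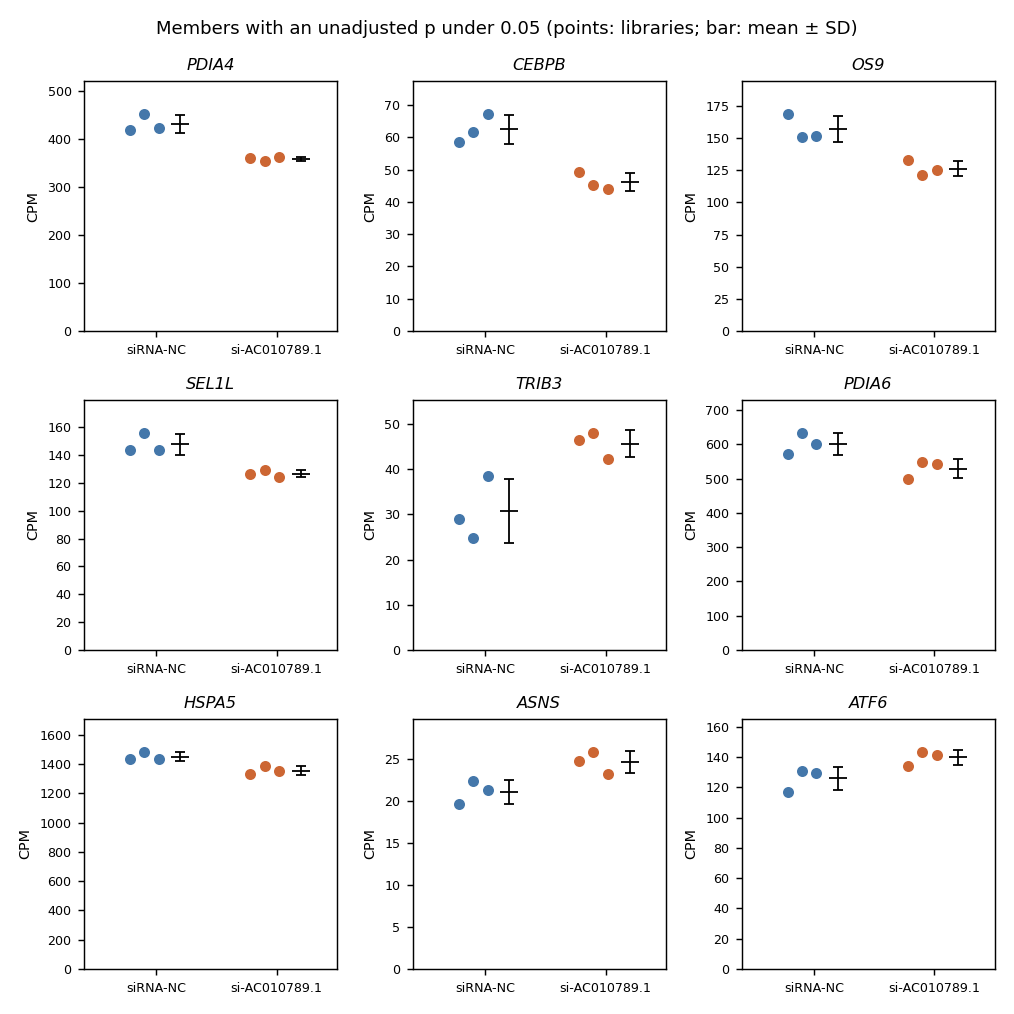
CPM (y axis, from 0) in each library of the 9 genes with an edgeR unadjusted p under 0.05, with 3 siRNA-NC and 3 si-AC010789.1 libraries as points and the mean ± SD as a bar. The groups do not overlap in any of the 9; PDIA4, CEBPB, OS9, SEL1L, PDIA6 and HSPA5 are lower and TRIB3, ASNS and ATF6 higher in si-AC010789.1.

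As the counts were given by transcript, the sum of a gene could hide a shift among its transcripts. Of the 256 transcripts of the 35 genes, 140 passed the filter and 0 had an adjusted p under 0.05 (edgeR over 44281 transcripts), against 0.0135% of all transcripts. At an unadjusted p under 0.05 edgeR gave 12 lower and 5 higher, against 5.74% of all transcripts in either direction, and 11 met the study's criteria, against 3.5%. DESeq2 gave 4 (HERPUD1-219, PDIA6-207, ATF4-203 and CANX-209), against 1.53%.

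HERPUD1-219, a transcript of 1425 bases with no coding sequence annotated (chr16:56932148-56943599), had the lowest p. It had 0 counts in each siRNA-NC library and 53, 43 and 54 counts in si1 to si3, at least 17.3-fold higher when the siRNA-NC libraries are set to a floor of 3 counts each (edgeR unadjusted p = 0.000255, adjusted p = 0.159; DESeq2 adjusted p = 5.77e-08). The adjusted p reached 0.947 over the 12 alternatives. Over all 98782 transcripts, 11 had 0 counts in siRNA-NC and at least 43 in each si-AC010789.1 library, and 20 had the reverse. HERPUD1-219 took 7.44% to 9.65% of the HERPUD1 counts in the si-AC010789.1 libraries, while the gene as a whole had overlapping groups.

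PDIA6 was counted on a different transcript in different libraries. PDIA6-207 had 39, 8298 and 6867 counts in NC1 to NC3 and 36, 30 and 26 in si1 to si3, while PDIA6-201 had 6411, 122 and 1121 against 5669, 6852 and 6669. NC1 thus resembled the si-AC010789.1 libraries, and PDIA6-207 passed edgeR's test only without NC1 (adjusted p = 0.0310; 0.614 with all 6 libraries). The summed CPM of PDIA6 stayed between 498 and 635.

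In CANX, the transcripts CANX-209 (436, 400 and 24 against 20, 32 and 25 counts), CANX-218 (125, 203 and 28 against 14, 15 and 23) and CANX-210 (32, 47 and 15 against 2, 10 and 4) were highest in NC1 and NC2, the libraries with the lower CANX sum. The leading CANX-201 had 6147, 7159 and 3615 counts in NC1 to NC3 and 3016, 21342 and 21635 in si1 to si3, and CANX-202 had 4792, 6301 and 20158 against 16431, 136 and 131. These shifts split each group. ATF4-203 had 9, 4 and 16 counts against 485, 675 and 4, so that si3 resembled siRNA-NC while the sum of ATF4 was almost level.

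Of the other transcripts with the lowest p, PDIA4-201, CEBPB-201 and HSPA5-201 carried over 99% of the counts of their genes in every library and repeated their values. P4HB-208, a retained-intron transcript, had 1113, 1341 and 1277 counts against 1450, 1573 and 1439 (log2 fold change 0.31 ± 0.081, edgeR adjusted p = 0.638). XBP1-203, which holds the 26 bases, had 78, 113 and 87 counts against 52, 32 and 31 (log2 fold change −1.20 ± 0.35, edgeR adjusted p = 0.732).

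Shifts among transcripts were common within a group. Among the 32 genes with 2 or more counted transcripts, the leading transcript was not the same in all 6 libraries in 15. The shift between 2 libraries was taken as the summed absolute differences of the transcript shares of a gene, divided by 2. It was over 50 percentage points between libraries of 1 group in 10 genes. The largest such shift per gene had a median of 24.0 points. In 9 genes the largest shift within a group was at least as large as that between the groups. Values of single transcripts are therefore less firm here than gene sums, whose coefficient of variation within a group had a median of 6.11% for the 35 genes and 9.08% for all genes.

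**Figure D4:**
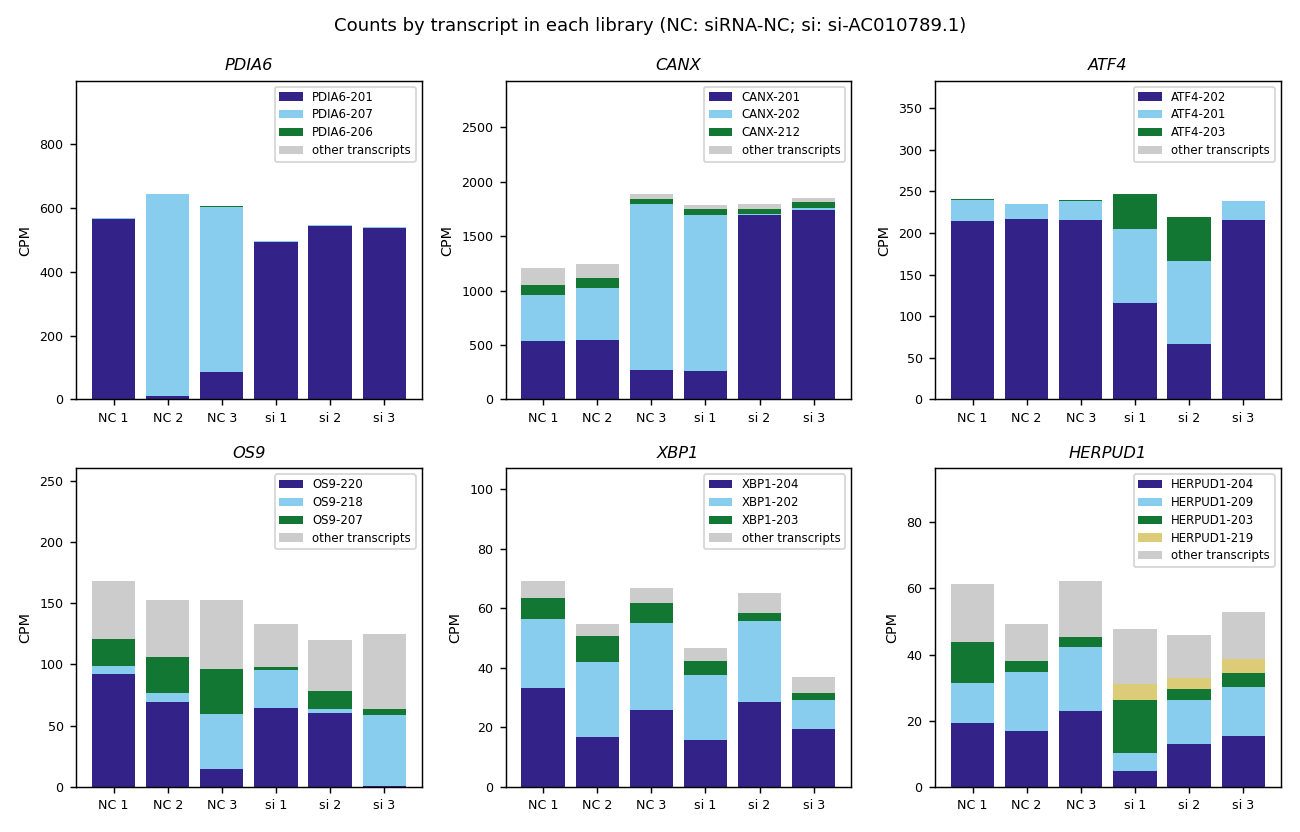
Stacked bars give the CPM of the leading transcripts of 6 genes in each library (y axis, from 0; NC, siRNA-NC; si, si-AC010789.1), with all further transcripts in grey. All 6 genes switch their leading transcript between libraries of the same group, and HERPUD1-219 is present in the 3 si-AC010789.1 libraries alone.

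Other genes of the pathways were read from 2 lists. Of 47 genes of eIF2 and the integrated stress response outside the 35, 46 were tested, 23 had a log2 fold change below 0 and the median was −0.0037. At an unadjusted p under 0.05 edgeR gave 8 lower and 7 higher, against 8.92% and 8.25% of all genes, and 1 gene had an adjusted p under 0.05 (2.17%, against 0.982% of all genes). It was GDF15, a secreted stress cytokine that ATF4 and DDIT3 can induce (chr19:18374731-18389176, plus strand). GDF15 had 21.8, 20.5 and 25.8 CPM in siRNA-NC against 11.3, 12.5 and 10.2 CPM in si-AC010789.1, and fell by 1.00 on the log2 scale (SE 0.13, edgeR adjusted p = 0.0326). The groups of GDF15 lay far apart, but the adjusted p was above 0.05 when any 1 of the 6 libraries was left out, and went up to 0.174 over the 12 alternatives.

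The second list held 87 genes of ER stress and protein quality control, all tested, of which 49 had a log2 fold change below 0 (median −0.042). Among them 5 had an adjusted p under 0.05 (5.75%, against 0.982% of all genes), 3 higher and 2 lower, with 13 higher and 15 lower at an unadjusted p under 0.05 in edgeR, against 8.25% and 8.92% of all genes. Both lists were written with earlier results of these data known, so their shares are descriptions. GANAB and PRKCSH, the catalytic and the regulatory subunit of glucosidase II, which trims glucose from new N-glycans ahead of binding by CANX and CALR, both rose. GANAB had 470, 487 and 448 CPM in siRNA-NC against 733, 772 and 754 CPM in si-AC010789.1 (log2 fold change 0.69 ± 0.047, edgeR adjusted p = 0.00694). PRKCSH had 225, 217 and 221 against 279, 279 and 288 CPM (0.35 ± 0.039, edgeR adjusted p = 0.0223). The spread within each group was small beside these differences.

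ERO1A, the oxidase that recharges disulfide isomerases, also rose, from 126, 112 and 118 CPM to 173, 192 and 172 CPM (log2 fold change 0.60 ± 0.069, edgeR adjusted p = 0.0223). DDOST, a subunit of the oligosaccharyltransferase that attaches N-glycans, fell from 135, 141 and 139 CPM to 98.5, 91.8 and 91.6 CPM (log2 fold change −0.56 ± 0.052, edgeR adjusted p = 0.0152), and its exons overlap PINK1-AS on the same strand. SSR3, a subunit of the translocon-associated complex, fell from 260, 275 and 270 CPM to 200, 193 and 182 CPM (log2 fold change −0.48 ± 0.050, edgeR adjusted p = 0.0198). With 1 library left out at a time, GANAB passed in 6 of 6 fits, DDOST only without si1, and PRKCSH, ERO1A and SSR3 in 0 of 6, where their adjusted p went up to 0.0988, 0.0832 and 0.0767. With the replicate number as a block none of the 5 passed, at an edgeR adjusted p of 0.101 for GANAB, 0.147 for PRKCSH, 0.159 for ERO1A, 0.126 for DDOST and 0.129 for SSR3. DESeq2 gave 9 genes of this list (4 higher, 5 lower) and 5 of the first (2 higher, 3 lower), against 3.78% of all genes.

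**Figure D5:**
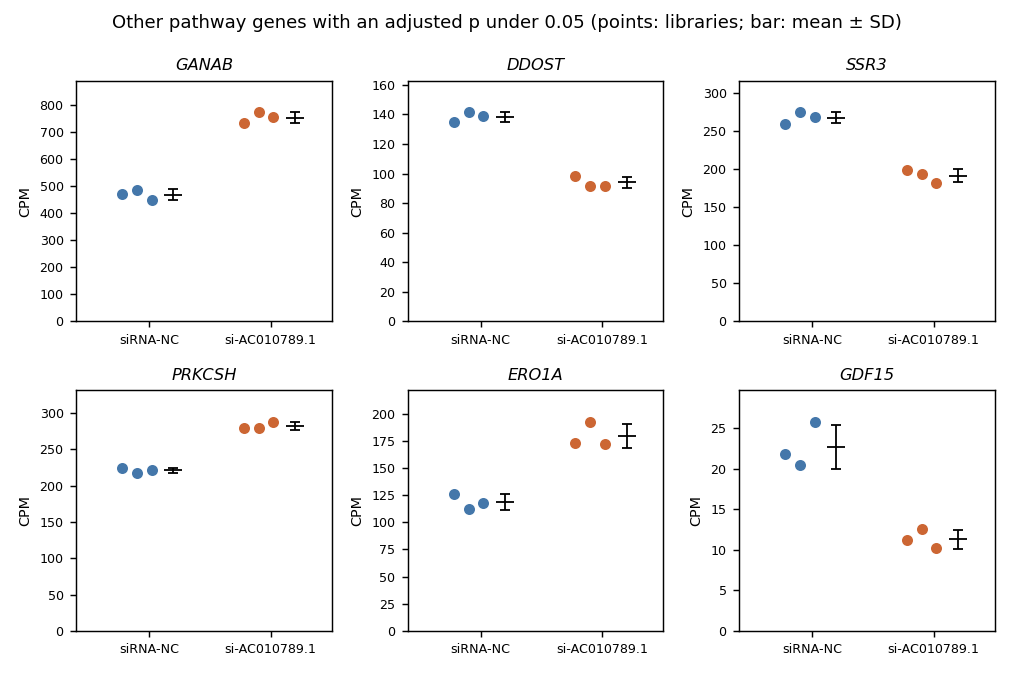
CPM (y axis, from 0) in each library of the 6 genes from the 2 further lists with an edgeR adjusted p under 0.05, with libraries as points and the mean ± SD as a bar. GANAB, PRKCSH and ERO1A are higher, and DDOST, SSR3 and GDF15 lower, in each si-AC010789.1 library than in any siRNA-NC library.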

How the data were processed

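RNA sequencing of 3 siRNA-NC and 3 si-AC010789.1 libraries was analysed, grouped by the sample titles. The file the authors deposited holds raw counts of reads for each Ensembl transcript in each paired-end TruSeq library. The submitters' processing notes name CASAVA 1.8, TopHat2 2.0.6 and the builds GRCh38 and mm10, and the methods name Cuffdiff; the counting program, annotation and use of strand are not given in the sources used here, so overlapping genes may share reads.

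Of 98886 transcripts, 104 had no match in GENCODE release 29 and were left out. The others were summed per gene. Genes and transcripts were filtered with filterByExpr (minimum count 10, minimum total 15), scaled with TMM factors (0.993 to 1.007 for genes) and tested across all features in edgeR 4.0.16 (glmQLFit, glmQLFTest; R 4.3.3) with Benjamini-Hochberg adjustment; the biological coefficient of variation was 0.170 for genes and 0.698 for transcripts. The scripts were tested on simulated data. CPM use TMM-scaled totals. Exact permutation tests used scipy 1.17.1. Cuffdiff needs alignments and was not run.

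The members and lists were chosen with earlier results of these data known. All 35 members were named; libraries were printed for the sensors, XBP1, ATF4, DDIT3, HSPA5, members with an unadjusted p under 0.05 or over 2-fold spread in a group, and, chosen after their values were seen, CANX, DNAJB11 and EDEM2. Named transcripts were the 10 with the lowest p and those of XBP1; PDIA6-201, CANX-201, CANX-202 and ATF4-203 were added after their values were seen. From the 2 further lists, the genes with an adjusted p under 0.05 were named. Alternatives were DESeq2 1.42.0, no filter, a mean of at least 1 CPM, library totals, upper-quartile scaling, the replicate number as a block and each library left out. Protein sequences were not used.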

Additional observations from a re-analysis of the deposited data

How the results depend on the processing

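Of 420 comparisons of a single member's log2 fold change with an alternative, 395 kept their direction and side of the threshold, 20 changed sign and 5 passed the threshold. Over all genes, 135 had an adjusted p under 0.05 in edgeR, 520 in DESeq2, 69 without the filter, 0 with the replicate number as a block and 12–37 with 1 library left out. The 107 genes that met the study's criteria became 332 without the filter and 149–169 with 1 library left out. The members with an adjusted p under 0.05 went from 0 to 4 in DESeq2 (which gave no adjusted p for ATF5, DDIT3 and CHAC1) and 0–1 with a library left out, 1 without NC3, and stayed at 0 with the block. Their transcripts went from 0 to 4 in DESeq2 and 0–1 (1 without NC1), and those with an unadjusted p under 0.05 from 17 to 10 with the block and 11–19 with a library left out. The eIF2 list went from 1 to 5 in DESeq2, 0 without the filter, 0 with the block and 0 in each fit with a library left out, and the ER list from 5 to 9, 0 with the block and 1–2. The median over the members was −0.095 to −0.068 with a library left out, lowest without NC3. The difference in the XBP1 share ran from −6.50 to 3.52 points, and was 0.354 without NC2. Allowing 1 mismatch in ERSE gave 15 members (44.1%) against 1.89% of all promoters. With upper-quartile scaling, ATF4 (0.0089), HSP90B1 (0.0026), SERP1 (0.014) and EDEM1 (0.013) changed sign, and with library totals SERP1 (0.0014) and EDEM1 (0.0010). With a library left out the log2 fold change ran from −0.044 to 0.038 for ATF4, −0.051 to 0.019 for HSP90B1, −0.0030 to 0.15 for SDF2L1, −0.047 to 0.062 for SERP1, −0.083 to 0.19 for SYVN1, −0.080 to 0.038 for EDEM1, −0.18 to 0.089 for CHAC1 and −0.12 to 0.033 for PPP1R15A. The cause of these differences was not tested. The block kept every member on its side of the threshold. Same-numbered libraries correlated by 0.111, 0.011 and 0.016 in their deviations from the group means, which did not show that the numbers pair them. The paper says that the repeats came from different generations of cells but does not tie a number to a generation, so whether same-numbered libraries share one is not known, and the 0 calls with the block cannot be set aside on that ground. The comparison of protein ends was not run. With 26 to 102 counts per library, ATF5, DDIT3 and CHAC1 carry more counting error than the other members.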
